A study of Mus musculus with 9 samples.

Results

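Prex1, Thbs1, Gng2, Dcun1d2, Hspbp1, Misp, N4bp3 and Sppl2c gained H3K27me3 signal in deleted mouse leukemia cells. They were chosen from the measured values, for more H3K27me3 CPM (counts per 1000000 counts in named genes) in deleted than in floxed cells, and they are 8 of 26611 named genes in the 6 histone files. The deleted against floxed values below are therefore a description and carry no test. H3K27me3 and H3K4me3 were profiled by chromatin immunoprecipitation with sequencing (ChIP-seq) in MLL-ENL leukemia cells, a myeloid leukemia that carries a fusion of the MLL and ENL genes, and an antibody to the Flag tag was used in the same cells. The series holds 3 genotypes: a floxed line (labelled fl), a deleted line (labelled ΔERT2), and the deleted line with Flag-tagged Hhex added back (labelled ΔERT2 + Hhex-F), called rescue here. All 3 share the MLL-ENL background. The series title and the tag place Hhex, a homeobox repressor, as the floxed gene, which the labels do not state. Mouse strain, age and whether a line was 1 clone or a pool were not stated in the labels. Each of the 9 combinations of antibody and genotype has 1 library, so no difference below has a replicate check, and every 95% interval covers counting error only.

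H3K27me3 is a repressive histone mark written by Polycomb repressive complex 2 (PRC2), and it commonly lies over CpG-rich promoters and the bodies of silent developmental genes. H3K4me3 marks the promoters of active or poised genes, and a promoter can carry both marks at once. The 8 genes have no single known function in common. Prex1 and Gng2 are linked in textbook signalling: the beta-gamma dimer of heterotrimeric G proteins, of which Gng2 encodes a gamma subunit, activates the Rac exchange factor P-Rex1 in myeloid cells. Thbs1 encodes a secreted matrix glycoprotein that binds the receptors CD47 and CD36. Dcun1d2 acts in attaching NEDD8 to cullins, Hspbp1 is a nucleotide exchange factor of the HSP70 chaperones, Misp is an actin-binding protein of spindle positioning, N4bp3 binds the ubiquitin ligase NEDD4, and Sppl2c is an intramembrane protease best known from testis.

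RefSeq promoters of build GRCm38.p6, the assembly of the files' mm10, were found for 6 of the 8 genes: Prex1, Gng2, Dcun1d2, Hspbp1, N4bp3 and Sppl2c. The promoters of 4 are shown, since they span the range of CpG content among the members and 2 of them (Dcun1d2 and N4bp3) are shared with a neighbouring gene whose H3K4me3 window could be read. Capitals mark each CG dinucleotide, and each sequence runs 5′ to 3′ on the gene's strand, from 250 bases before the start to 50 after it.
Prex1 (chr2:166713783-166714082, minus strand): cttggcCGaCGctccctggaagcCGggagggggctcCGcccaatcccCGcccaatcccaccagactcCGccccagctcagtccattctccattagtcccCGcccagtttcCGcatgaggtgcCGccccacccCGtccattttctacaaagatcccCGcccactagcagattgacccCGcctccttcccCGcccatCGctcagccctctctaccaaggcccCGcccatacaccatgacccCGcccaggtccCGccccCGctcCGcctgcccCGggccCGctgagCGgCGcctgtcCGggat
Dcun1d2 (chr8:13288077-13288376, minus strand): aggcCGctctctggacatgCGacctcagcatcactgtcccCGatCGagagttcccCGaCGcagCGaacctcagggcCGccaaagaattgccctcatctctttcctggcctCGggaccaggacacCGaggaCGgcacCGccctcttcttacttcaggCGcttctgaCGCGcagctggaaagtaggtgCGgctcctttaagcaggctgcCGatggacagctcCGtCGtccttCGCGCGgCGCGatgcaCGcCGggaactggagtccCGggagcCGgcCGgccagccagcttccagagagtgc
N4bp3 (chr11:51651024-51651323, minus strand): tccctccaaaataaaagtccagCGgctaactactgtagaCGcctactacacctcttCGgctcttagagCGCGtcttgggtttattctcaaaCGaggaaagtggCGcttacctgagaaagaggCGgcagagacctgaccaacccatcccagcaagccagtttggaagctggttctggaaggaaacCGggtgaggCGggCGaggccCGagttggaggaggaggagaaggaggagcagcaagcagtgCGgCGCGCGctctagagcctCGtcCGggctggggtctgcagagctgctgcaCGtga
Sppl2c (chr11:104186077-104186376, plus strand): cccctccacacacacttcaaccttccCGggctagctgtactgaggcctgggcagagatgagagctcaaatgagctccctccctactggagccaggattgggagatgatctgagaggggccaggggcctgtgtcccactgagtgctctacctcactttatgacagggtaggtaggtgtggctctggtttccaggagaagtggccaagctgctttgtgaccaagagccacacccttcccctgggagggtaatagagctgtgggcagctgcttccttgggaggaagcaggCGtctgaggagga

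The promoters did not share a CpG class. Dcun1d2 held 29 CG dinucleotides, Prex1 24, N4bp3 19, Hspbp1 15, Gng2 5 and Sppl2c 2, against a median of 7 over 32851 RefSeq promoters of the same length. Dcun1d2 had more than 87.1% of those promoters and Sppl2c more than 14.1%. The GC content of Prex1 was 69.3% and that of Gng2 44.7%, against a median of 52.7%. The Gng2 window (19976644 to 19976943, minus strand) lies inside the gene span, which ends at 19977825. It describes an internal start, and the outer end of the span was not read. The start used for Hspbp1 also lies inside its span. The GC box GGGCGG, searched on both strands, occurred 10 times in the Prex1 promoter, 1 time each in those of Dcun1d2 and Hspbp1, and not in those of Gng2, N4bp3 and Sppl2c, while 35.7% of all promoters held it. The homeodomain core TAAT, on both strands, was present in Prex1, Gng2 and Sppl2c and in 58.0% of all promoters. These matches describe letters in a window and show no binding.

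The H3K27me3 files count reads over regions of gene scale. A count is given here also as CPM per kb of counted region, which can be compared between genes. At the 8 members that region was close in length to the RefSeq span, but at some neighbours it was not. Fsip1 spans 118130261 to 118256987 with 52079 bases counted, and 2810030D12Rik spans 13200782 to 13201790 with 7013 counted. Named genes held 2444487, 2535576 and 4203349 H3K27me3 counts in floxed, deleted and rescue, and 645240, 420701 and 395133 H3K4me3 counts. A gene counted as measured when its average over the 3 libraries of a mark reached 20 counts. It was called higher or lower past a 1.5-fold difference in CPM whose interval excluded 1, which is the size rule used below. The average includes the deleted library, in which the members were picked for high values. In floxed and rescue, Thbs1 (2 and 19 counts), Hspbp1 (11 and 16) and Misp (9 and 28) averaged below 20. These genes count as measured only through their deleted counts. Setting them beside shares of measured genes is therefore not free of that choice. Among lineage markers with an entry on the plus strand, all 6 such genes of the myeloid list (Mpo, Elane, Prtn3, Cebpa, Csf3r and Itgam) had at least 10 H3K4me3 counts in each library, with summed levels of 705, 589 and 673 CPM. For T cell genes the sums were 3.10, 2.38 and 7.59 CPM over Cd3d and Cd8a, for B cell genes 54.2, 66.6 and 50.6 over Cd79a and Ebf1, for erythroid genes 24.8, 14.3 and 17.7 over Klf1 and Alas2, the latter at 0 in all 3, and for endothelial and stromal genes 10.8, 26.1 and 12.7 over Pdgfra and Tek. Ebf1 of the B cell list also had at least 10 counts in each library, with 32, 25 and 17. Kit, the 1 plus-strand gene of the stem and MLL leukemia list, had 223, 162 and 143. The myeloid sums cover 6 genes and those of the T cell, B cell, erythroid, and endothelial and stromal lists 2 each. Their sizes therefore do not compare directly. The part of these sums in the results was not tested.

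All 8 genes lay above the floxed library in the deleted library by this rule, as they were chosen to, where 4.72% of 10604 measured genes were called higher. Their ratios ran from 2.40 to 36.2 and their median log2 ratio was 1.87, against 0.02 over all measured genes. By number of counts, Prex1 and Gng2 are the best measured, and Hspbp1, Misp, N4bp3 and Sppl2c rest on 9 to 14 floxed counts each. Ordered by the lower bound of the ratio's interval, with predicted genes left out, the 8 fill the first 10 places together with Nlrp3 and Zkscan17 (12, 48 and 9 counts in floxed, deleted and rescue). Dcun1d2 stood last inside with a lower bound of 1.880, and the genes next outside were Tusc3 (2.43, 1.876 to 3.18) and Plcg1 (2.71, 1.846 to 4.06).

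Prex1 lies on chromosome 2, 166566345 to 166713832, and with 147488 bases it is the longest of the 8. Its H3K27me3 counts were 535, 1334 and 246 in the order floxed, deleted and rescue, which is used throughout. As a density this was 1.48, 3.57 and 0.397 CPM per kb. The deleted library was thus highest and the rescue library lowest, with floxed between them. The deleted-to-floxed ratio was 2.40 (2.17 to 2.66), the rescue-to-deleted ratio 0.111 (0.0967 to 0.128) and the rescue-to-floxed ratio 0.267 (0.229 to 0.312). Prex1 was the one member whose rescue value was called below the floxed value. Among 23112 genes of at least 1 kb, its density stood at percentile 74.8 in floxed, 87.7 in deleted and 58.2 in rescue.

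Gng2 (chromosome 14, 19872558 to 19977825) spans 104691 bases as counted and had 58, 154 and 73 counts. The densities were 0.227, 0.580 and 0.166 CPM per kb, the lowest deleted density of the 8. Its deleted-to-floxed ratio was 2.56 (1.88 to 3.52) and its rescue-to-deleted ratio 0.286 (0.213 to 0.380). Against floxed, the rescue ratio was 0.732 (0.511 to 1.05), so no difference was called and the interval includes a fall of more than 1.5-fold. Gng2 and Prex1 therefore shared the order of the deleted library above both others, while their rescue values stood differently to floxed.

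Thbs1 (chromosome 2, 118111876 to 118127133) was nearly free of counts in the floxed library. It had 2, 75 and 19 counts, or 0.0538, 1.94 and 0.297 CPM per kb. The floxed and deleted libraries were far apart and rescue lay between them. The deleted-to-floxed ratio of 36.2 has an interval of 9.67 to 304, since it rests on the 2 floxed counts. Rescue against deleted was 0.153 (0.0872 to 0.255) and rescue against floxed 5.52 (1.33 to 48.9). Thbs1 was the one member called above floxed in rescue. Its density percentile was 18.5, 77.6 and 54.0.

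Dcun1d2 (chromosome 8, 13255963 to 13288126) had 29, 87 and 47 counts, and its densities were 0.369, 1.07 and 0.348 CPM per kb. Floxed and rescue were close, with a ratio of 0.943 (0.581 to 1.55), and deleted stood above both, with 2.89 (1.88 to 4.57) against floxed. Hspbp1 (chromosome 7, 4660515 to 4685188) had 11, 46 and 16 counts, or 0.184, 0.742 and 0.156 CPM per kb. It showed the same order as Gng2 and Dcun1d2, with a deleted-to-floxed ratio of 4.03 (2.06 to 8.63) and a rescue-to-floxed ratio of 0.846 (0.369 to 2.02). The rescue-to-deleted ratio was 0.326 (0.224 to 0.470) at Dcun1d2 and 0.210 (0.111 to 0.378) at Hspbp1.

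The 3 shortest genes had higher rescue than floxed values, without a call. Misp (chromosome 10, 79821019 to 79830452) had 9, 38 and 28 counts, N4bp3 (chromosome 11, 51643081 to 51651073) 14, 55 and 35, and Sppl2c (chromosome 11, 104186327 to 104191166) 12, 49 and 28. Sppl2c reached the highest deleted density of the 8, with 1.01, 3.99 and 1.38 CPM per kb over 4840 bases. N4bp3 followed the same course at 0.717, 2.72 and 1.04, and Misp at 0.390, 1.59 and 0.706. Their deleted-to-floxed ratios were 4.07 (1.94 to 9.57), 3.79 (2.08 to 7.38) and 3.94 (2.06 to 8.13) for Misp, N4bp3 and Sppl2c. Their rescue-to-floxed ratios were 1.81 (0.830 to 4.36), 1.45 (0.763 to 2.92) and 1.36 (0.668 to 2.93), and their rescue-to-deleted ratios 0.444 (0.263 to 0.744), 0.384 (0.244 to 0.597) and 0.345 (0.209 to 0.559).

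**Figure D1:**
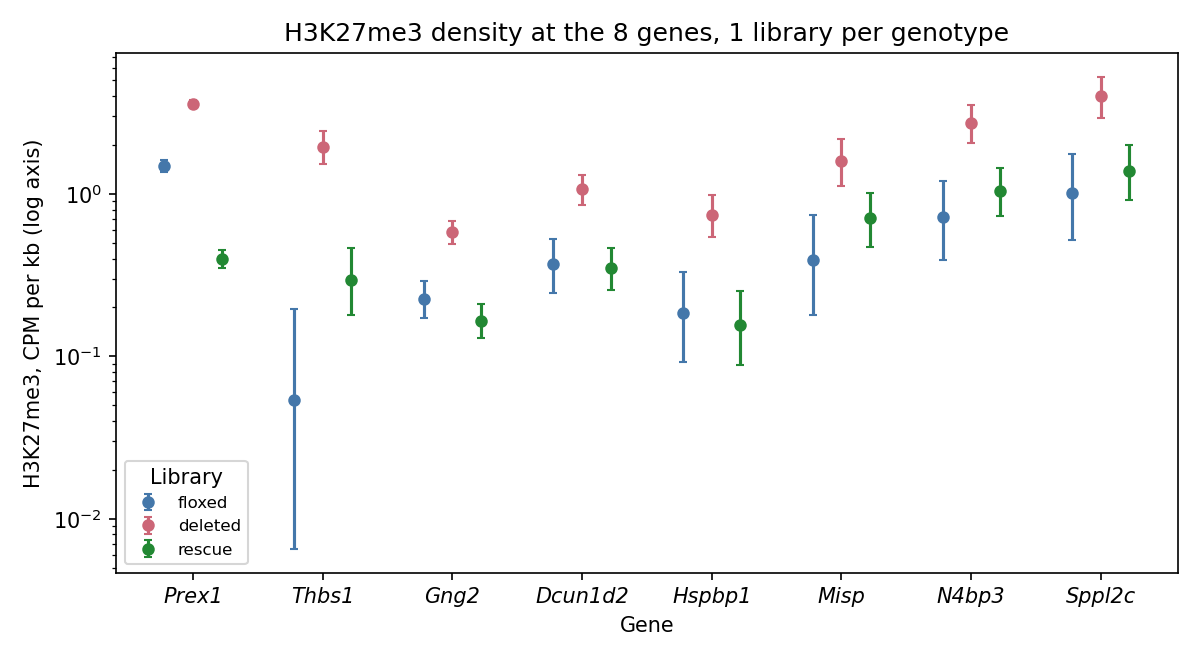
H3K27me3 density in CPM per kb (log axis) at each of the 8 genes, with 1 point per library and exact Poisson 95% intervals for counting error. The deleted point is the highest of the 3 at every gene, and the rescue point lies below floxed at Prex1 (0.397 against 1.48) and above it at Thbs1 (0.297 against 0.0538).

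In the rescue library all 8 genes were lower than in the deleted library by the size rule, where 11.3% of measured genes were called lower and 7.07% higher. This comparison shares the deleted library, in which the members were picked for high values, so nothing is read from its direction. The ratios ran from 0.111 at Prex1 to 0.444 at Misp. Against floxed, which is also shared with the choice, 1 member was lower (Prex1, where 8.05% of measured genes were), 1 was higher (Thbs1, where 5.72% were) and 6 were not called. The median log2 ratio of the 8 was 0.17 against -0.05 over all measured genes. The 6 intervals not called are wide: that of Hspbp1 spans 0.369 to 2.02.

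**Figure D2:**
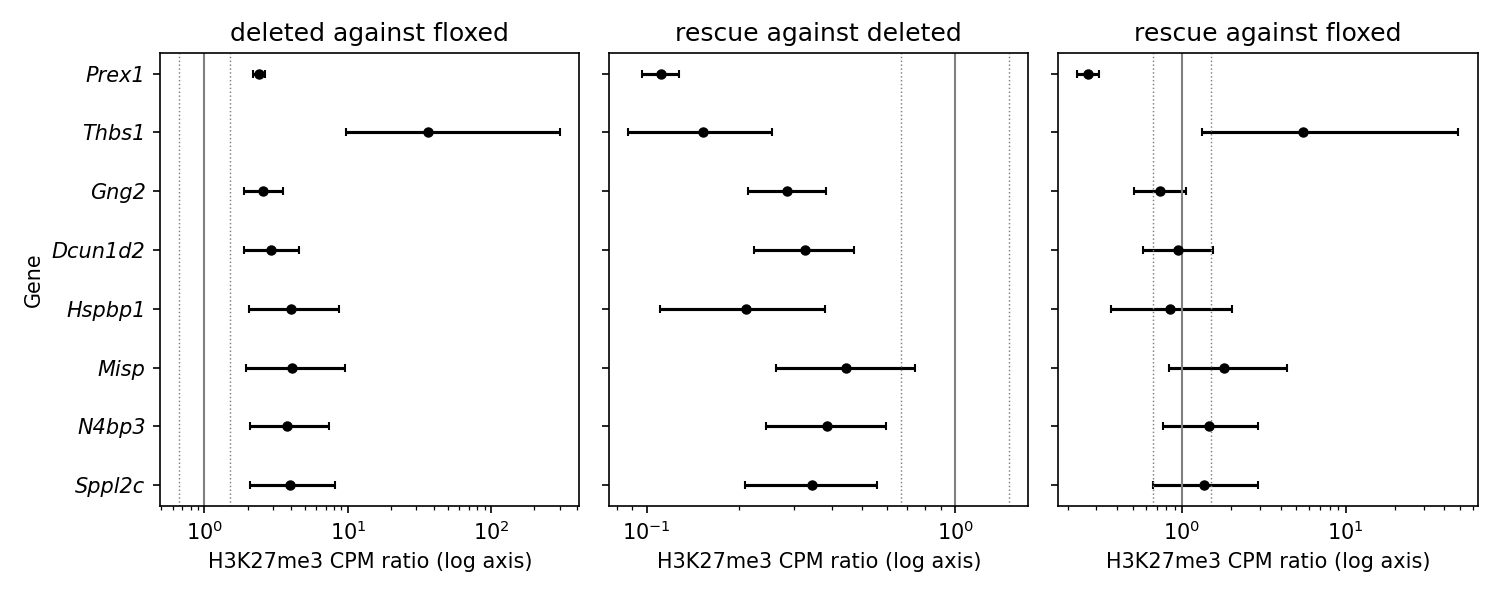
H3K27me3 CPM ratios (log axes) of the 8 genes for the 3 pairs of libraries, with exact conditional binomial 95% intervals; the solid line marks 1 and the dotted lines a fold of 1.5 in each direction. Deleted against floxed lies right of 1 by the choice of genes, and in rescue against floxed only Prex1 (0.267) and Thbs1 (5.52) have intervals that do not reach 1.

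The members differed widely in size. Lengths ran from 4840 bases for Sppl2c to 147488 for Prex1, with a median of 19.8 kb, against 31.4 kb for all measured genes, 25.5 kb for the 500 genes higher in deleted and 7.40 kb for the 572 lower. Prex1 stood at percentile 87.1 of length among measured genes and Sppl2c at 9.95. The difference in density between deleted and floxed was 2.98 CPM per kb at Sppl2c, 2.08 at Prex1, 2.00 at N4bp3, 1.89 at Thbs1, 1.20 at Misp, 0.698 at Dcun1d2, 0.558 at Hspbp1 and 0.354 at Gng2. The shortest and the longest gene thus had the largest differences. The median density of the 8 was 0.380, 1.77 and 0.372 CPM per kb, beside 1.59, 1.75 and 1.60 for all measured genes and 0.601, 1.16 and 0.705 for the genes higher in deleted. In the deleted library single members ranged from 0.580 at Gng2 to 3.99 at Sppl2c, and among genes of at least 1 kb Sppl2c stood at percentile 89.3, N4bp3 at 83.4 and Gng2 at 61.4. The 572 genes lower in deleted, which were chosen for that fall, had medians of 7.53, 4.07 and 7.09 CPM per kb. CPM values are relative within a library, so a lower share at some genes and a higher share at others cannot be told apart in absolute terms. When libraries were scaled to the measured genes of low density, a choice made after the data were seen, the median log2 ratio of all measured genes was -0.14 and the split changed from 500 higher and 572 lower to 242 and 1148. All 8 members, which were picked for high deleted values, were still called higher.

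H3K27me3 was also read in the genes next to the members. Taking the 2 nearest named genes on each side of each member, without overlapping ones, gave 32 genes, of which 14 were measured. Of these, 0 were called higher or lower in deleted against floxed, where 4.72% and 5.39% of all measured genes were, so with 14 genes the count is near that background. Their median log2 ratio was 0.11. In rescue against deleted, neighbours called lower were Nid2 near Gng2 (0.261, 0.163 to 0.409) and Gm11468 near Prex1 (0.3785, 0.235 to 0.600). Gm13985 near Thbs1 was also called lower (0.637, 0.431 to 0.942). The other measured neighbours were not called, where 11.3% of all measured genes were lower and 7.07% higher. Whether these members and their neighbours shared a fall was not tested. Among unmeasured neighbours, Arf2 near Sppl2c had 0, 9 and 5 counts. It passed the fold and interval as higher in deleted against floxed, with a lower bound of 1.90. Saysd1 near Gng2 had 7, 9 and 3 counts and passed them as lower in rescue against deleted (0.201, 0.0350 to 0.806). The span of Fsip1 begins 3128 bases from Thbs1, and the gene had 318, 319 and 638 counts, a ratio of 0.967 (0.825 to 1.13). The counted region of Fsip1 is shorter than this span, and where it lies was not stated, so the counts may come from further off. The floxed density of Fsip1, 2.50 CPM per kb, was far above the 0.0538 of Thbs1. Gpr176, the next gene on that side, had 1077, 1019 and 1906 counts, and on the other side, at 203 kb, 4930412B13Rik had 406, 504 and 722 with a ratio of 1.20 (1.05 to 1.37). Beyond it Gm13985 had 36, 54 and 57. Thbs1 thus lay between genes with H3K27me3 in all 3 libraries.

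Dcun1d2 and Sppl2c also had dense neighbours. The span of Adprhl1 (13218788 to 13254542) ends 1421 bases from Dcun1d2. Adprhl1 held 7.16, 7.91 and 6.76 CPM per kb, with a ratio of 1.10 (0.948 to 1.28). Its counted region of 18501 bases is shorter than the span, and where it lies was not stated. Tmco3, which overlaps Dcun1d2 at its start, had 15, 13 and 27 H3K27me3 counts over 34912 bases and was not measured; its ratio was 0.836 (0.366 to 1.88). Further off, 2810030D12Rik had 26, 26 and 50 counts and Atp4b, a proton pump subunit of the stomach, had 36, 47 and 71. Sppl2c lies between the stress hormone receptor gene Crhr1, with 548, 599 and 1056 counts at a ratio of 1.05 (0.937 to 1.18), and the tau gene Mapt, with 1055, 998 and 1734 and a ratio of 0.912 (0.835 to 0.995). These flanking genes held 5.26 and 4.29 CPM per kb in floxed, against 1.01 at Sppl2c.

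The neighbours of the other members were as follows. On either side of Prex1 the nearest genes are 107575 and 78627 bases away, and of the 4 only Gm11468 was measured (39, 51 and 32 counts, ratio 1.26, 0.815 to 1.97). Near Gng2, Nid2 had 52, 67 and 29 counts with a ratio of 1.24 (0.852 to 1.82), and the potassium channel gene Kcnk5 had 274, 308 and 463. Brsk1, beside Hspbp1, had 93, 101 and 146 counts, and Sec24a, beside N4bp3, had 16, 18 and 29. None of the 4 neighbours of Misp was measured; Palm, 104 bases away, had 5, 4 and 11 counts. D930048N14Rik overlaps the start of N4bp3 and had 12, 25 and 11 counts, below the filter, with a ratio of 2.01 (0.972 to 4.39). The way reads in overlapping genes were assigned was not stated, so these counts cannot be fully separated from those of N4bp3.

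**Figure D3:**
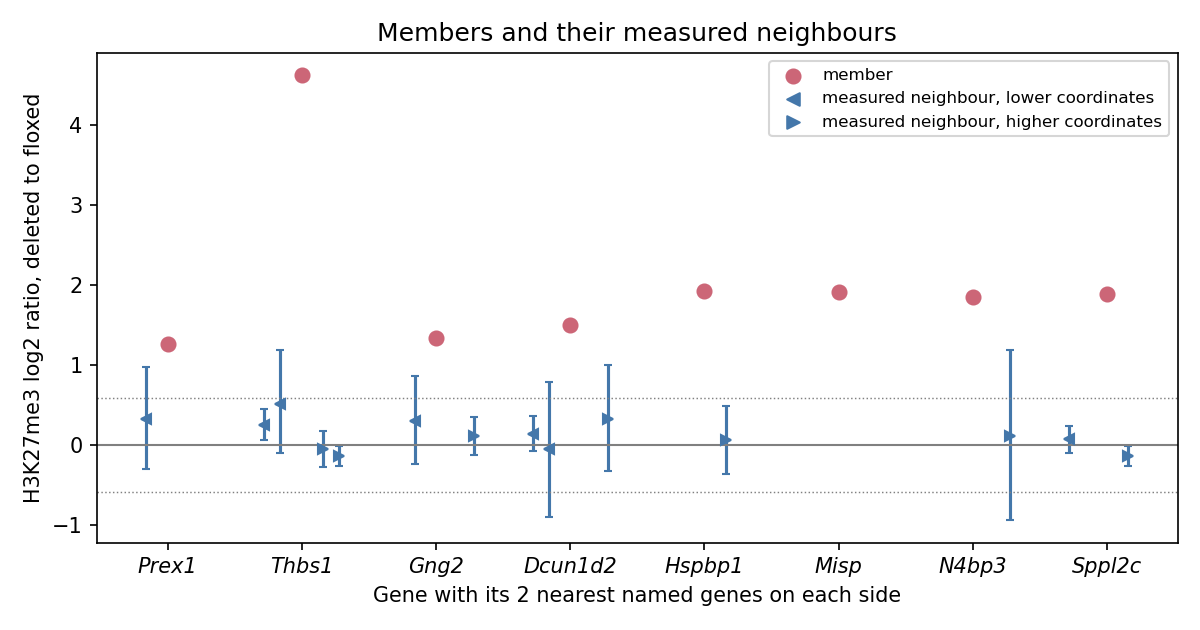
H3K27me3 log2 ratio of deleted to floxed for the 8 genes (circles) and for those of their 2 nearest named genes on each side that were measured (triangles, with 95% intervals for counting error); dotted lines mark a fold of 1.5. In this pair of libraries none of the 14 neighbours passes the size rule, and Misp has no measured neighbour.

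H3K4me3 is a readout that the choice of genes did not use, but its windows could be read at only part of the 8. Each gene was counted in a window of 301 bases whose position was not stated. Over genes with at least 15 CG dinucleotides in their RefSeq promoter, 89.7% of 4569 on the plus strand had at least 10 floxed counts, and 10.2% of 4514 on the minus strand. Median counts were 76 and 1. Among minus-strand genes, 76.6% of the 77 with a CpG-rich start of a listed gene within 500 bases of their lower-coordinate end had at least 10 counts, against 5.11% of 7597 with no listed start within 2 kb of it. These counts place the windows at the lower-coordinate end of a gene, which is its start on the plus strand and its far end on the minus strand. Prex1, Gng2, Dcun1d2, Hspbp1 and N4bp3 are on the minus strand, so their own windows do not measure their promoters. Those windows held 0, 2 and 0 counts at Prex1, 0 in all 3 libraries at Gng2, 0, 1 and 0 at Dcun1d2, 2, 1 and 0 at Hspbp1 and 7, 3 and 3 at N4bp3. Thbs1 and Misp had no entry in the promoter table, so their strand was not read and their windows may lie at either end of the gene.

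The promoters of Dcun1d2 and N4bp3 could be read through a neighbour. Tmco3 is on the plus strand and starts 113 bases inside Dcun1d2, and D930048N14Rik is on the plus strand and starts 119 bases inside N4bp3. These neighbours were picked after their values were seen. The Tmco3 window had 61, 34 and 44 H3K4me3 counts, or 94.5, 80.8 and 111 CPM, and a deleted-to-floxed ratio of 0.855 (0.545 to 1.32). The D930048N14Rik window had 210, 150 and 113 counts, or 325, 356 and 286 CPM, and a deleted-to-floxed ratio of 1.10 (0.882 to 1.36). Neither was called, and the lower bounds of 0.545 and 0.882 limit how large a fall these counts allow. The rescue-to-deleted ratios were 1.38 (0.861 to 2.22) and 0.802 (0.623 to 1.03).

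Thbs1 had H3K4me3 in every library, with 109, 62 and 75 counts, or 169, 147 and 190 CPM. Its deleted-to-floxed ratio was 0.872 (0.628 to 1.20), its rescue-to-deleted ratio 1.29 (0.908 to 1.83) and its rescue-to-floxed ratio 1.12 (0.826 to 1.52). No pair of libraries was called, beside the H3K27me3 ratio of 36.2 over the same gene. Thbs1 was the one member measured for H3K4me3, and 0 of 1 was called in each pair. The shares of the 6681 measured genes called lower and higher were 4.39% and 3.02% in deleted against floxed, 5.97% and 4.49% in rescue against deleted, and 3.92% and 1.92% in rescue against floxed. Sppl2c, on the plus strand, had 4, 2 and 1 counts in its window and Misp had 3, 1 and 0, so no difference was detectable at this depth. The 0 at Misp in rescue allows up to 7.59 CPM by a limit of 3 counts, while the interval plotted for it is the exact Poisson one and reaches higher. For comparison, Nlrp3, also higher in deleted with 62, 466 and 87 H3K27me3 counts, held 40, 8 and 20 counts in its H3K4me3 window, with a deleted-to-floxed ratio of 0.307 (0.124 to 0.664). This interval and that of Thbs1 overlap slightly, and the difference between both genes was not tested.

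**Figure D4:**
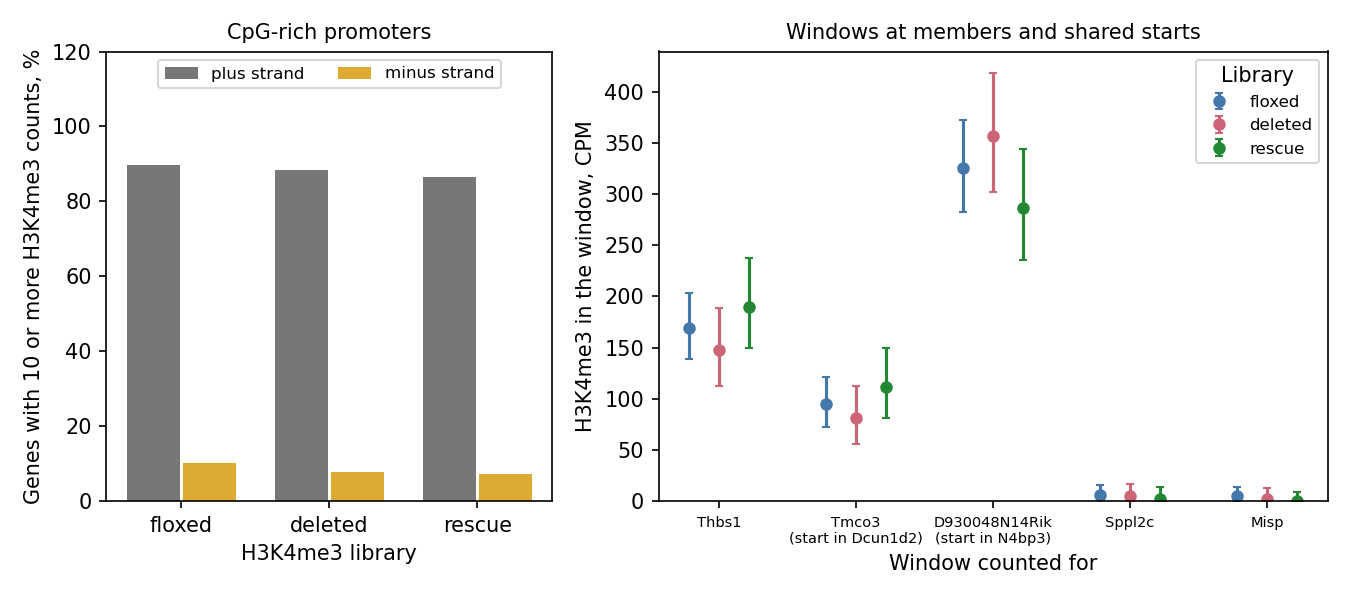
Left, share of genes with a CpG-rich promoter (15 or more CG dinucleotides) that had 10 or more H3K4me3 counts, by strand and library: 89.7% on the plus strand and 10.2% on the minus strand in floxed. Right, H3K4me3 CPM in 5 windows, with exact Poisson 95% intervals: Thbs1 and the shared starts of Dcun1d2 and N4bp3 carried H3K4me3 in all 3 libraries, and Sppl2c and Misp had 4 counts or fewer.

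Lists of genes from the same families were set beside the members. Over the 8 lists built around the members' functions, 55 other genes were measured for H3K27me3, with ratios from 0.426 (Gng13) to 1.69 (Hspa2). Of these, 0 were higher and 2 were lower in deleted against floxed, where 4.72% and 5.39% of measured genes were. Below the count filter, Cul4a (8, 22 and 6 counts), Ndfip1 (5, 16 and 17), Rac1 (0, 9 and 11), Itgb1 (1, 9 and 18) and Bag5 (0, 6 and 7) passed the fold and interval as higher. Numa1 (11, 3 and 11) and N4bp2 (20, 8 and 18) passed them as lower. Without the filter, 840 of all 26611 named genes were called higher and 774 lower. Among Rac exchange factors and Rac proteins, 15 others were measured with a median log2 ratio of -0.01; Prex2, the closest relative of Prex1, had 143, 140 and 230 counts at a ratio of 0.944 (0.742 to 1.20), and Vav2 had 249, 283 and 345. Among G protein beta and gamma subunits, 7 others had a median of -0.14, and Gng13, a gamma subunit of sensory cells, was lower with 86, 38 and 115 counts at a ratio of 0.426 (0.283 to 0.631). Thrombospondins and their receptors (10 others) had a median of -0.10, with Thbs4 at 254, 232 and 382 counts and Thbs2 at 24, 16 and 94.

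The other lists held few measured genes. In cullin neddylation 3 others were measured, with a median of 0.53, among them Cand2 with 26, 44 and 25 counts at a ratio of 1.63 (0.983 to 2.76). HSP70 proteins and their cofactors had 6 others with a median of -0.03, spindle positioning 4 with 0.09, and signal peptide peptidases 1, Sppl3, with 26, 22 and 72 counts. Among NEDD4 ligases and binding proteins, 9 others had a median of -0.32 and the ligase gene Wwp2 was lower, with 36, 21 and 44 counts at a ratio of 0.562 (0.312 to 0.990). For H3K4me3, 64 other genes of these lists were measured, of which 0 were higher and 5 lower in deleted against floxed, where 3.02% and 4.39% of all measured genes were. The 5 included the thrombospondin receptor Cd47 (67, 27 and 28 counts), its ligand Sirpa (93, 37 and 43) and Gng5 (86, 36 and 40). The HSP70 cofactors Bag3 (68, 27 and 27) and Bag6 (42, 10 and 26) were the others. Sirpa had no entry in the promoter table, so its window may lie at either end of the gene. The 64 also include minus-strand genes, whose windows do not measure their own promoters. In a list of inflammasome genes, taken around Nlrp3, 5 were measured for H3K27me3 and Nlrp3 alone was called; for H3K4me3 4 were measured, of which Nlrp3 and Casp4 (59, 22 and 26) were lower, where 4.39% of all measured genes were.

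No Flag summit lay near any of the 8 genes. The authors' lists hold 475 summits for floxed, 220 for deleted and 429 for rescue, and the labels name the tagged protein for the rescue line alone. Within 100 kb of a member there were 0 summits in each list, where 2.97%, 1.39% and 2.89% of 25275 placed genes had one. With 8 genes, a count of 0 is near that background. The nearest summits were those 391 kb from Gng2, present in all 3 lists. For the rescue list the nearest summit of the other genes was between 1850 kb (Prex1) and 6450 kb (Hspbp1) away.

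The members were also set beside the measured genes of most similar course. Likeness was taken as the Euclidean distance over the log2 ratios of deleted to floxed and rescue to floxed in the 3 H3K27me3 libraries. The nearest to Prex1 were Endod1 (21, 52 and 10 counts, distance 0.174) and Sh3bp5 (139, 303 and 76, distance 0.327). Thbs1 stood furthest from its nearest genes: Klra9 (6, 26 and 28) and Tespa1 (8, 29 and 50) were 2.83 and 2.95 away. N4bp3 and Sppl2c were nearest to each other at 0.108, and N4bp3 was also nearest to Misp at 0.296. Crls1 and Ccdc25 were nearest to Gng2 (0.094 and 0.155), Hgfac and Mprip to Dcun1d2 (0.162 and 0.181), and Cnr1 to Hspbp1 (0.233). Krt74 was the next nearest to Misp (0.371) and Spag11b to Sppl2c (0.321). The counting error of these distances was not computed.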

How the data were processed

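The deposited H3K27me3 and H3K4me3 files hold whole-number counts per gene, not normalised, for 3 libraries of each mark. Per the submitters' processing notes, featureCounts, MACS2 and build mm10 were used, with no version named and the aligner not given in the sources used here. Deposited Flag files hold summits with a −log10 score, in the layout of MACS2 summit files. The deposited length column is the size of the region counted. Rows without a symbol (568, with 0.608% to 0.739% of a library's counts) were left out.

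CPM is a count over its library's named-gene total. Ratios carry exact conditional binomial (Clopper-Pearson) 95% intervals (scipy 1.17.1), and log2 ratios a prior count of 1. The size rule is a fold of 1.5 with an interval that excludes 1, in genes averaging 20 or more counts. The rule was run on simulated Poisson counts with planted fold changes, drawn from a shared profile. Those counts hold no variation between libraries, so they do not show how the rule behaves with it. With 1 library per group no test between groups was made. Gene positions and promoters are from RefSeq (GRCm38.p6), matched on Entrez identifier for 25275 of 26611 genes; strand was read from the promoter table. Alternatives were edgeR 4.0.16 TMM factors, median-of-ratios size factors, all rows, other filters, folds and prior counts.

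The members and the lists were chosen with earlier results of these data known. The genes named are the members, their measured 2 nearest neighbours on each side, list genes called by the size rule in deleted against floxed, the 2 genes of nearest pattern per member (predicted genes skipped), the 2 genes just outside the members, and Nlrp3. Other list genes and unmeasured neighbours named with their values were chosen after those were seen.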

Additional observations from a re-analysis of the deposited data

How the results depend on the processing

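The 8 members kept their calls for deleted against floxed and for rescue against deleted under TMM factors, median-of-ratios factors, the total of all rows, the low-density scaling, no filter and a 2-fold rule. The members were picked for high values in the deleted library, which both pairs share, so these kept calls were largely set by that choice. A mean of at least 100 counts left 1 member called in each, Prex1, since it is the only member with that mean. Over 48 alternative values for each pair of H3K27me3 libraries, and 5 for each pair at Thbs1 in H3K4me3, each member's own call stayed the same. One moved out of its interval: Prex1, at a log2 ratio of 1.10 with low-density scaling in place of 1.26. Over all genes, those higher in deleted against floxed numbered 500, and 242 with low-density scaling, 840 with no filter, 107 with a mean of at least 100 and 177 with a 2-fold rule. In the last 2 settings rescue against deleted had 384 and 484 lower genes in place of 1196, rescue against floxed 268 and 319 in place of 854, and H3K4me3 in deleted against floxed 5 and 70 in place of 293. With TMM factors the split for rescue against deleted was 935 higher and 991 lower, in place of 750 and 1196; with low-density scaling it was 1033 and 925. For rescue against floxed, TMM factors gave 722 and 735 in place of 607 and 854. With 3 flanking genes on each side, 1 of 21 measured neighbours was called in deleted against floxed. It was Grk1 near Dcun1d2 (86, 144 and 200 counts, ratio 1.61, 1.23 to 2.13). No paired analysis was possible because each group has 1 library. Depth limits Thbs1 most, with 2 floxed counts, then Hspbp1, Misp, N4bp3 and Sppl2c, with 9 to 14, and no replicate shows how far libraries of 1 genotype vary.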

Other observations

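The position of the H3K4me3 windows touches more than the 8 genes. Of the 6681 genes measured for H3K4me3, 4781 are on the plus strand in the RefSeq promoter table, 361 are on the minus strand and 1539 have no entry there. A low H3K4me3 count at a minus-strand gene in these files is therefore no reading of its promoter. The 8 genes together summed to 670, 1838 and 492 H3K27me3 counts (floxed, deleted and rescue), which is 0.0274%, 0.0725% and 0.0117% of each library. Without Prex1 the sums were 135, 504 and 246.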
